A study of Mus musculus with 48 samples.

Results

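Among the Ly6Clo cells sorted from mouse colon tumours, those with high surface MHC class II (MHCIIhi) were compared with those with low MHC class II (MHCIIlo). All samples titled with either population were taken, 32 of the 48 in the series, and both genotypes were kept, with genotype in the model. The 24 MHCIIhi samples make 16 replicates and the 8 MHCIIlo samples make 8, because 8 MHCIIhi replicates have a second library, which was added to the first. In each sample the 3′ ends of poly(A) transcripts of sorted intratumoral immune cells were sequenced in bulk. All groups share the treatment AOM DSS and day 85. AOM is azoxymethane, a carcinogen, and DSS is dextran sulfate sodium, a colitis-inducing polymer. MHCIIhi had 8 replicates labelled ko and 8 labelled ctrl, and MHCIIlo had 4 of each. The series concerns the chemokine gene Ccl17. Which part of that gene the ko allele lacks, the age of the mice, the other surface markers of the gate and the housing of each ko sample (the series names cohoused and separately housed ko mice) are not given in the labels. The labels do not tie replicates to separate animals, and the p-values therefore reflect only the variation among these samples, which may be technical.

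Ly6C is a surface protein abundant on blood monocytes that have newly left the bone marrow, and it is lost as these cells turn into macrophages in the colon wall. MHC class II presents peptides to CD4 T cells, and in the gut it is gained by maturing macrophages and is high on dendritic cells. A Ly6Clo gate can therefore hold macrophages, dendritic cells and other myeloid cells such as neutrophils, and the level of MHC class II divides them without naming them. In bulk samples, fewer cells of a type and less RNA per cell cannot be told apart, and every difference below carries that limit.

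The labels were first set against the genes they rest on. Cd74, the invariant chain that guides MHC class II molecules to the endosome, ranged from 12268 to 15427 CPM (counts scaled to library size) in MHCIIhi replicates, with a median of 13948. In MHCIIlo replicates Cd74 ranged from 1994 to 3443 CPM, with a median of 2613. Every MHCIIhi replicate lay above every MHCIIlo replicate, and the log2 fold change was 2.36 ± 0.10 (SE; adjusted p = 2.96e-17, edgeR's quasi-likelihood test with Benjamini-Hochberg adjustment over all genes, as for each adjusted p below). Cd74 was chosen as a gate marker, so this checks the sort and is no finding. Not analysed here are H2-Eb1, H2-Ab1 and H2-Aa, which encode MHC class II chains. Ly6c2, which encodes a form of Ly6C, was low in both populations. It had 6.03 to 89.1 CPM in MHCIIhi (median 20.6) and 19.6 to 64.8 CPM in MHCIIlo (median 46.9), and Ly6c1 had 4 counts in MHCIIhi and 0 in MHCIIlo.

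Ccl17, at chromosome 8, 94810453 to 94812036 on the plus strand (GRCm38), was nearly all in the MHCIIhi replicates labelled ctrl. There were 15 counts among 4094375 in MHCIIhi ko and 510 counts among 3747660 in MHCIIhi ctrl. The MHCIIhi ko replicates reached at most 6.95 CPM, and the MHCIIhi ctrl replicates ranged from 0 to 802 CPM with a median of 57.3 and a mean of 173 ± 279 (SD, n = 8). Within ctrl the replicates were spread widely, and 2 of them, replicates 4 and 5, held 802.3 and 338.9 CPM. MHCIIlo had 5 counts in ko and 1 in ctrl, where 3 counts would be 3.87 CPM in ko and 3.84 CPM in ctrl. The MHCIIlo ctrl replicates reached at most 3.92 CPM, against the median of 57.3 CPM in MHCIIhi ctrl. Ccl17 was thus near the floor in MHCIIlo ctrl, and only a small difference between the genotypes there could have been missed at this depth. Ccl17 was under the count filter and has no test in the comparison of populations.

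MHCIIhi replicates held 39872 to 891461 counts (median 500352) and MHCIIlo replicates 139098 to 248593 (median 194311.5). A pair of MHCIIhi replicates stood below 100000 counts, ctrl 2 with 51630 and ko 6 with 39872. Sample barcodes were also uneven. The MHCIIlo ko libraries all carried G/C-rich barcodes and the MHCIIlo ctrl libraries all A/T-rich ones, and in MHCIIlo the barcode and the genotype therefore cannot be told apart. MHCIIhi had both classes in both genotypes, and the comparison was therefore also made within each class. The A/T-rich comparison has the same 4 MHCIIlo replicates as the ctrl comparison, and the G/C-rich one the same 4 as ko. Results within classes and within genotypes are therefore not separate checks.

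Of 4022 genes tested, 559 were higher in MHCIIhi (13.9%) and 596 were lower (14.8%), at an adjusted p under 0.05, together 28.7%. Each count of list members below is to be read beside these shares. The count filter keeps a gene that is high enough in 1 population alone. The tested members of a list can therefore lean in advance towards the population where they are high. A difference of at least 2-fold as well was found for 66 higher genes (1.64%) and 69 lower genes (1.72%), together 3.36%. For 34 genes every MHCIIhi replicate lay above every MHCIIlo replicate (0.845%), and for 27 genes every MHCIIhi replicate lay below (0.671%). The median log2 fold change over all genes tested was 0.00. The scaling aims at this centre, so the median is no check of it. With DESeq2 size factors in its place 509 genes were higher and 638 lower. The largest differences were not symmetrical. Among named genes that averaged at least 100 CPM in the higher population, the falls reached −5.81, with S100a8, S100a9, Retnlg and G0s2 at the far end. The rises of such genes ended at 3.70, with Ccl22, Ccl8 and Ccr7 among the first.

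**Figure D1:**
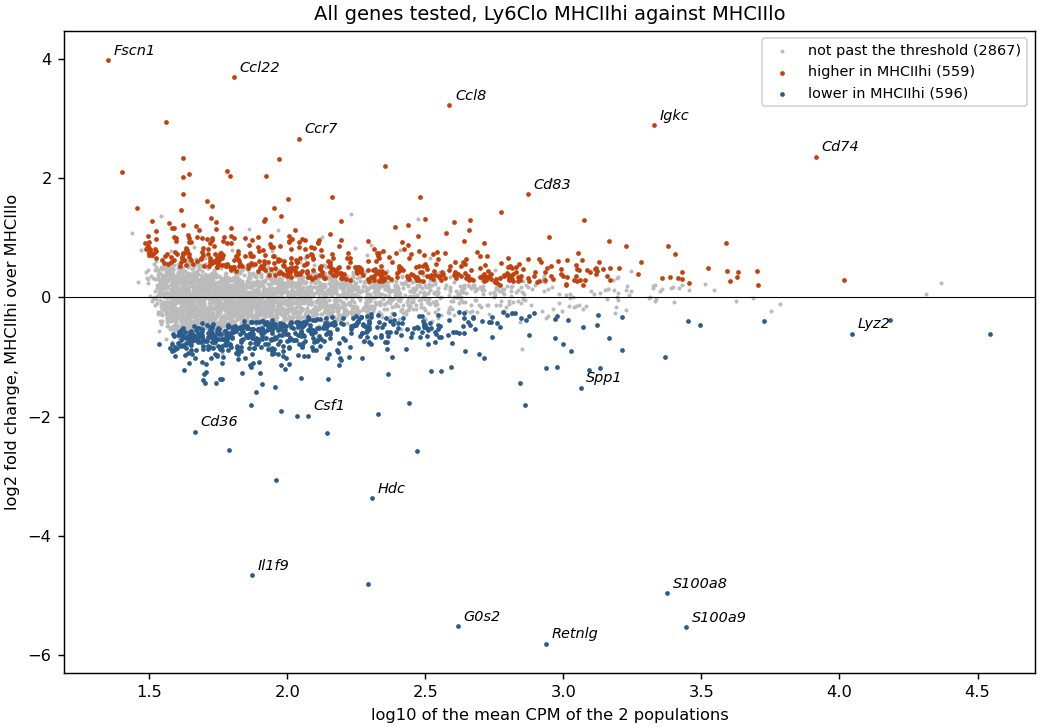
Log2 fold change of MHCIIhi over MHCIIlo (y axis) against log10 of the mean CPM of both populations (x axis) for the 4022 genes tested, each point a gene, coloured where it was higher or lower past the threshold. The points above 0 end at Fscn1 (3.98), while S100a8, S100a9, Retnlg and G0s2 lie between −4.97 and −5.81.

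The comparison was repeated within barcode classes and within genotypes. With A/T-rich barcodes alone 348 genes passed (169 higher, 179 lower) and with G/C-rich barcodes alone 471 passed (248 higher, 223 lower). Of the 133 named genes past the threshold, 130 had the same sign in both classes and 72 passed in both. The exceptions in sign were Igkc and Il10, whose difference was negative with G/C-rich barcodes, and Krt8 had no value with A/T-rich ones. Within ko alone 100 of the named genes passed and within ctrl alone 84 passed, with 132 of 132 in the same direction in each. These 133 genes had passed with all replicates. Equal signs in parts of the same replicates were therefore likely in advance and are not separate support.

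Genes of MHC class II handling were higher where they passed. Ciita, at chromosome 16, 10480059 to 10528418 (plus strand), encodes the transactivator that switches on MHC class II genes. It had 49.2, 163 and 253 CPM in MHCIIhi, against 0, 32 and 58.5 CPM in MHCIIlo, where the 3 values of a group here and below are its lowest replicate, its median and its highest replicate. In 15 of 16 MHCIIhi replicates Ciita exceeded the highest MHCIIlo replicate, and its log2 fold change was 2.32 ± 0.24 (SE; adjusted p = 2.65e-08). Of 6 tested members of the MHC class II loading list 3 rose and 0 fell, with a median log2 fold change of 0.23. The 3 include the gate marker Cd74, whose rise checks the sort and is no finding. Beside Cd74 and Ciita the third was Ctss, the protease that trims the invariant chain, and its rise was small. Ctss had 3342, 4416 and 5236 CPM in MHCIIhi, against 2839.7, 3869.9 and 4184 CPM in MHCIIlo, with a log2 fold change of 0.28 ± 0.08 (adjusted p = 0.011). With A/T-rich barcodes alone the Ctss difference was 0.14 (adjusted p = 0.54). Among 7 tested genes of MHC class I presentation 2 rose and 0 fell, where 13.9% of all genes rose, and 0 rose with A/T-rich barcodes alone and 0 within ctrl. One was B2m, the light chain of class I molecules, with a log2 fold change of 0.43 ± 0.08 (adjusted p = 3.4e-04), and the other was Psme2, a subunit of the proteasome activator, with 0.59 ± 0.18 (adjusted p = 0.013).

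Genes of dendritic cell maturation and migration were mostly higher in MHCIIhi. Of 19 tested members 11 rose and 1 fell, with a median log2 fold change of 1.02. These genes let a dendritic cell that has met antigen move to the lymph node and prime T cells. Ccr7, the chemokine receptor that steers this migration (chromosome 11, 99144196 to 99155077, minus strand), had 63.7, 192 and 327 CPM in MHCIIhi, against 11.4, 31.9 and 39.9 CPM in MHCIIlo. Its groups did not overlap, and the log2 fold change was 2.67 ± 0.32 (SE; adjusted p = 3.90e-07). Ccl22 encodes a chemokine that shares the receptor CCR4 with CCL17 and lies at chromosome 8, 94745590 to 94751699 (plus strand). Ccl22 had 27.6, 108 and 231 CPM in MHCIIhi, against 0, 7.10 and 28.5 CPM in MHCIIlo, and 15 of 16 MHCIIhi replicates lay above all of MHCIIlo. Its log2 fold change was 3.70 ± 0.50 (adjusted p = 3.19e-06), with 3.39 among A/T-rich and 4.06 among G/C-rich barcodes.

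Fscn1, the actin-bundling protein of mature dendritic cells, had 0, 40.8 and 96.6 CPM in MHCIIhi, against 0, 0 and 10.4 CPM in MHCIIlo. In MHCIIlo, 5 of 8 replicates held no Fscn1 count and the others at most 2, which leaves the fitted log2 fold change of 3.98 ± 0.60 (adjusted p = 1.39e-05) imprecise. Cd83, a surface glycoprotein that stabilises MHC class II, was far more abundant, with 809, 1079.5 and 1609 CPM in MHCIIhi, against 234, 336 and 463 CPM in MHCIIlo. No MHCIIhi replicate fell into the MHCIIlo range of Cd83, and its log2 fold change was 1.73 ± 0.14 (adjusted p = 4.33e-10). Il4i1, a secreted amino acid oxidase, averaged 64.3 ± 36.1 CPM in MHCIIhi and 8.41 ± 9.65 CPM in MHCIIlo (SD, n = 16 and 8), a log2 fold change of 2.95 ± 0.45. The costimulatory genes moved less. Cd40 rose by 1.02 ± 0.27 and Cd86 by 0.69 ± 0.19 on the log2 scale, and Relb, an NF-kB subunit, rose by 0.60 ± 0.17. Traf1, an adaptor of tumour necrosis factor receptors, had 303, 624 and 1032 CPM in MHCIIhi, against 194, 240.5 and 443 CPM in MHCIIlo, and its log2 fold change was 1.13 ± 0.19 (adjusted p = 6.49e-05). Samsn1, an adaptor that restrains B cell activation, was the member that fell (log2 fold change −0.60 ± 0.16). The T cell chemokine gene Ccl5 averaged 1469 ± 3373 CPM in MHCIIhi and 329 ± 262 CPM in MHCIIlo and did not pass (log2 fold change 1.97 ± 0.83, adjusted p = 0.0746). A single replicate, MHCIIhi ctrl 3, carried Ccl5 as 75.5% of its counts for the whole list.

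**Figure D2:**
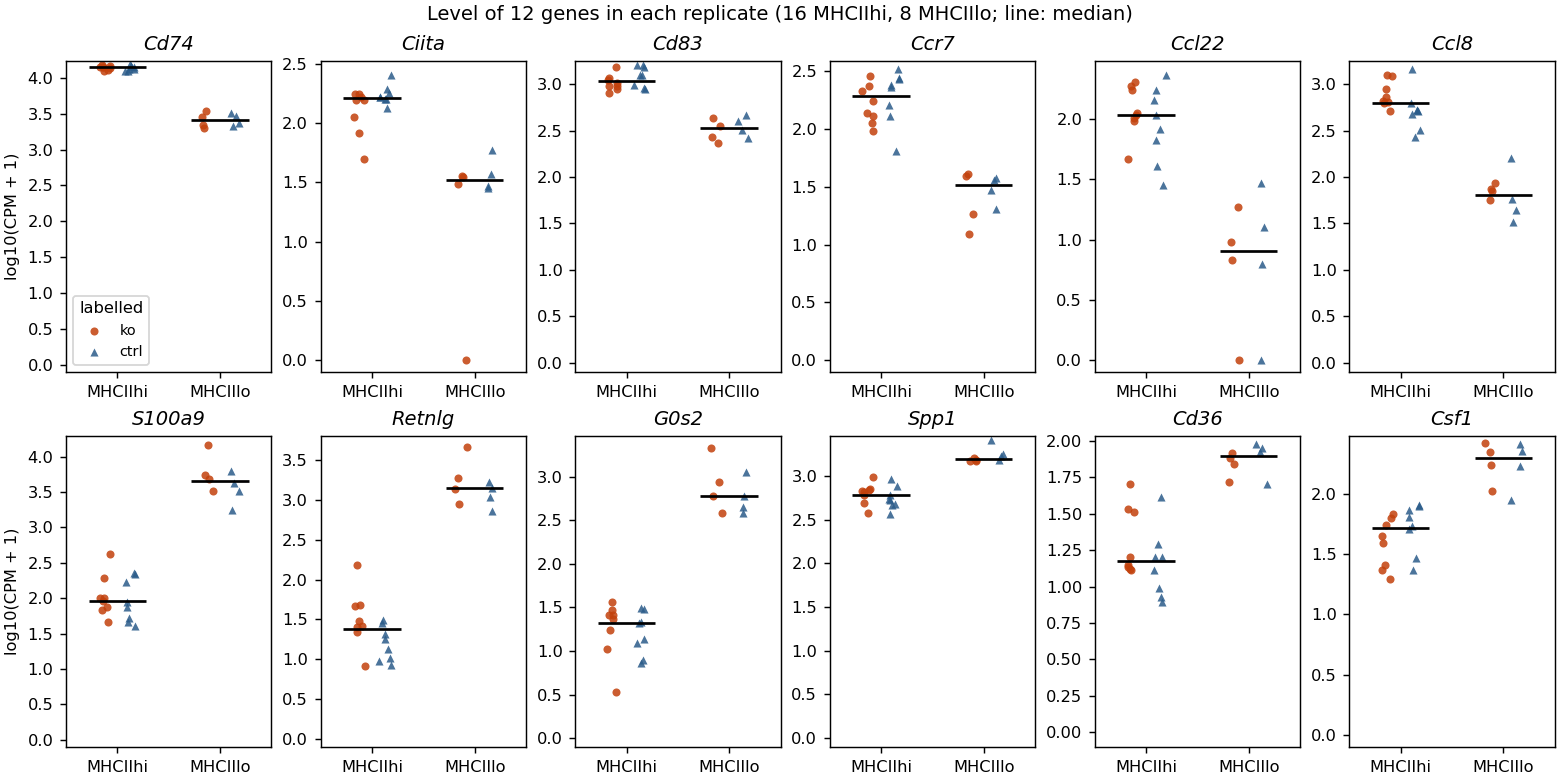
Level of 12 genes as log10(CPM + 1) in each of the 16 MHCIIhi (left) and 8 MHCIIlo (right) replicates, with ko as circles, ctrl as triangles and the median as a line. Cd74, Ccr7, Cd83 and Ccl8 lie wholly higher in MHCIIhi, while S100a9, Retnlg, G0s2, Spp1, Cd36 and Csf1 lie wholly lower.

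Subset markers of conventional dendritic cells did not move as 1 block. Batf3, a transcription factor required by cDC1, had 0, 72.8 and 111 CPM in MHCIIhi, against 0, 15.6 and 38.3 CPM in MHCIIlo (log2 fold change 2.07 ± 0.31, adjusted p = 1.05e-05). Naaa, an amidase prominent in cDC1, rose by 1.04 ± 0.22, whereas Cd24a, which cDC1 share with neutrophils and epithelium, fell by 1.90 ± 0.24. Of 7 tested cDC1 genes 2 rose and 1 fell, where 13.9% of all genes rose and 14.8% fell. Among 5 tested cDC2 genes 2 rose and 0 fell, and counts in lists this small say little beside those shares. Cd209a, a C-type lectin of monocyte-derived and cDC2 cells, had 20.6, 54.5 and 172 CPM in MHCIIhi, against 0, 13 and 44.8 CPM in MHCIIlo (log2 fold change 2.02 ± 0.40, adjusted p = 3.90e-04). The other was Ifitm1, a membrane protein of the interferon-induced family, with 722, 1736 and 2867 CPM in MHCIIhi, against 322, 592 and 1136 CPM in MHCIIlo. Its groups overlapped in 3 of 16 MHCIIhi replicates, and the log2 fold change was 1.30 ± 0.22. The integrin gene Itgax, which encodes CD11c and is shared by dendritic cells and gut macrophages, had a log2 fold change of 0.07 (adjusted p = 0.69).

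Several of the steepest rises were in genes that no dendritic cell list holds. Ccl8, a monocyte and eosinophil attractant made by resident macrophages, had 265, 627 and 1463 CPM in MHCIIhi, against 31.3, 63.7 and 161 CPM in MHCIIlo. All 16 MHCIIhi replicates were above all MHCIIlo replicates, with a log2 fold change of 3.23 ± 0.31 (SE; adjusted p = 4.92e-09), 2.94 within A/T-rich and 3.59 within G/C-rich barcodes. Dnase1l3, a secreted nuclease of dendritic cells and macrophages that degrades chromatin from dying cells, had 139.6, 332 and 717 CPM in MHCIIhi, against 34.0, 63.7 and 234 CPM in MHCIIlo (log2 fold change 2.20 ± 0.34). Pgf, a growth factor of the VEGF family, rose by 2.13 ± 0.45. Its MHCIIhi replicates spanned 37.5 to 453 CPM with a median of 78.7, all above the 5.22 to 35.7 CPM of MHCIIlo. Ocstamp, known from osteoclast fusion, rose by 2.04 ± 0.27, and Ramp3, a partner of adrenomedullin receptors, by 2.04 ± 0.24. Ramp3 had 62.8, 134 and 219 CPM in MHCIIhi, against 19.5, 34.5 and 39.9 CPM in MHCIIlo, without overlap. Tspan13, Tmem176a and Gpr171 likewise did not overlap, with log2 fold changes of 1.68, 1.68 and 1.66. Cst3, an inhibitor of cysteine proteases abundant in dendritic cells, had 4337, 5034 and 6539 CPM in MHCIIhi, against 2112, 2666 and 3197 CPM in MHCIIlo (log2 fold change 0.92 ± 0.09, adjusted p = 8.86e-09). Bcl2a1d, a survival gene, rose by 1.51 ± 0.18, but it has near-identical copies between which the counting could split reads.

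Antibody receptors rose together. Of 6 tested Fc receptor genes 5 rose and 0 fell, with a median log2 fold change of 0.59. Fcgr4, an activating receptor for IgG, had 219, 376 and 710.3 CPM in MHCIIhi, against 109.7, 169 and 221 CPM in MHCIIlo (log2 fold change 1.22 ± 0.16, adjusted p = 2.05e-06). Fcgrt, the neonatal receptor that recycles IgG, rose by 1.31 ± 0.21 and Fcgr2b, the inhibitory receptor, by 0.65 ± 0.09, both without overlap between the groups. Fcer1g, the shared signalling chain, rose by 0.34 ± 0.07. In the myeloid C-type lectin list 6 of 12 tested genes rose and 1 fell. Klrb1b rose by 2.10 ± 0.41, Clec4a3 by 1.28 ± 0.23 and Cd72, an inhibitory lectin, by 1.08 ± 0.16, whereas Clec4d, which binds mycobacterial glycolipid, fell by 1.29 ± 0.19.

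Of 24 tested genes of mature gut macrophages 10 rose by modest amounts, 0 fell and 14 did not pass, with a median log2 fold change of 0.24. C1qb, a chain of complement C1q, had 3691, 5799 and 7349.6 CPM in MHCIIhi, against 2569, 4534 and 5617 CPM in MHCIIlo, with a log2 fold change of 0.44 ± 0.12 (adjusted p = 0.0060). C1qb was thus abundant in both populations, whose ranges overlapped. The mannose receptor gene Mrc1 rose by 0.84 ± 0.19, the selenoprotein gene Sepp1 by 0.91 ± 0.20 and the phospholipid transfer protein gene Pltp by 1.06 ± 0.19. Other defining macrophage genes did not pass. The log2 fold changes were 0.20 for Adgre1 (adjusted p = 0.40), 0.09 for Cx3cr1 (0.81), 0.25 for Apoe (0.165) and −0.38 for Mertk (0.22). The count of 10 depended on the samples used. It was 1 with A/T-rich barcodes alone against 8 with G/C-rich ones, and 9 within ko against 2 within ctrl, and the median stayed between 0.23 and 0.43. Il10, the anti-inflammatory cytokine of gut macrophages, rose by 1.02 ± 0.36 (adjusted p = 0.033), but the difference was −0.01 (adjusted p = 0.99) with G/C-rich barcodes alone.

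The largest differences of the comparison were falls in neutrophil genes. Of 12 tested members of the neutrophil list 10 fell and 1 rose, with a median log2 fold change of −2.98. The table holds 28 members, and those tested include genes that could pass the count filter through MHCIIlo alone. G0s2, for example, averaged 18.9 CPM in MHCIIhi and 813 CPM in MHCIIlo. The count and the median are therefore tilted towards falls and only describe the tested members. S100a8 and S100a9 are the paired subunits of calprotectin, the calcium-binding protein that fills the neutrophil cytosol. S100a9 (chromosome 3, 90692632 to 90695721, minus strand) had 39.4, 89.2 and 421 CPM in MHCIIhi, against 1786, 4571 and 14488 CPM in MHCIIlo. S100a8 had 48.7, 108 and 574 CPM in MHCIIhi, against 1998, 4448 and 9895 CPM in MHCIIlo. In both genes every MHCIIhi replicate lay far below every MHCIIlo replicate, and the log2 fold changes were −5.53 ± 0.35 (SE; adjusted p = 5.20e-13) for S100a9 and −4.97 ± 0.31 (adjusted p = 5.15e-13) for S100a8. Retnlg, a resistin-like protein of neutrophils (chromosome 16, 48872621 to 48874496, plus strand), had 7.25, 22.7 and 149 CPM in MHCIIhi, against 713, 1389 and 4575 CPM in MHCIIlo. Its log2 fold change of −5.81 ± 0.33 (adjusted p = 4.92e-14) was the largest in size of all named genes, and it was −5.81 within A/T-rich and −5.06 within G/C-rich barcodes.

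The 250 bases before the start sites of the neutrophil genes were searched for TTGCNNAA on either strand, a core that C/EBP factors, regulators of granulocyte genes, can bind. Of the 11 neutrophil genes past the threshold, 9 have a promoter in the RefSeq table for GRCm38.p6 and 3 hold a match, and 9.55% of the 27025 promoters of the same length hold one. The windows of S100a9 and Retnlg are shown as the 2 genes of largest fall with a match. Capitals mark the match, which lies 236 bases before the start of S100a9 and 246 bases before that of Retnlg, there on the opposite strand. The other match was in Lcn2. For the dendritic cell maturation genes a core of NF-kB sites was searched in the same way, and it matched 0 of the 6 members past the threshold with a promoter in the table, against 4.0% of all promoters. A match is a description of the letters in this window only.
S100a9, chr3:90695722-90695971, minus strand, 5′ to 3′: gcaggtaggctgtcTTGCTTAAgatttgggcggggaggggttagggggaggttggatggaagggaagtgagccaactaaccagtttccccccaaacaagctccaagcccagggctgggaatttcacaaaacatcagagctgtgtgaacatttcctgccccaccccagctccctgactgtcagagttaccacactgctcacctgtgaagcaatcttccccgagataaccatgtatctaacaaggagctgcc
Retnlg, chr16:48872358-48872607, plus strand, 5′ to 3′: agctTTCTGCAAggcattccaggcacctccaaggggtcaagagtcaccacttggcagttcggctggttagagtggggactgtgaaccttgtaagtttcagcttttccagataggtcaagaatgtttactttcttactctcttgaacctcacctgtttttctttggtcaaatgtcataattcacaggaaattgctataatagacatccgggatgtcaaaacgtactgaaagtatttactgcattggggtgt

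G0s2, an inhibitor of triglyceride lipase, had 2.42, 20.2 and 35.9 CPM in MHCIIhi, against 378, 594 and 2107 CPM in MHCIIlo (log2 fold change −5.52 ± 0.29, adjusted p = 1.18e-14). Wfdc21 fell by 4.81 ± 0.31 on the log2 scale without overlap. Il1f9, which encodes the cytokine interleukin-36 gamma, fell by 4.66 ± 0.42, also without overlap. Hdc, the enzyme that makes histamine and a gene of basophils and mast cells as well as neutrophils, had 0, 29.6 and 223 CPM in MHCIIhi, against 209, 369.8 and 528 CPM in MHCIIlo (log2 fold change −3.37 ± 0.30). Lrg1, a glycoprotein of neutrophil granules, fell by 3.06 ± 0.35. Acod1, which makes itaconate in activated myeloid cells, fell by 2.58 ± 0.37. Csf3r, the receptor for granulocyte colony-stimulating factor, averaged 31.9 ± 10.2 CPM in MHCIIhi and 116 ± 68.7 CPM in MHCIIlo (SD), a log2 fold change of −1.81 ± 0.26. Mmp9, a gelatinase shared with macrophages, fell by 1.44 ± 0.27. Against the other members, Il1r2, the decoy receptor for interleukin-1, had 244, 449 and 645 CPM in MHCIIhi, against 140.3, 232 and 438 CPM in MHCIIlo, and rose by 0.72 ± 0.21 (adjusted p = 0.0106). That rise was 0.15 (adjusted p = 0.75) with G/C-rich barcodes alone.

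The summed level of the 28 neutrophil markers in the table ran from 1262 to 9358 CPM in MHCIIhi (median 1594) and from 7525 to 37240 CPM in MHCIIlo (median 15660). The MHCIIhi maximum was ctrl 3, in which Slpi, a protease inhibitor that epithelium also makes, gave 67.5% of the list's counts and S100a9 stood at 171 CPM. The azurophil granule genes Elane and Mpo were at 0 in both populations. MHCIIlo replicate ko 3 had the highest S100a8, S100a9, Retnlg and G0s2. Lcn2, the siderophore-binding lipocalin, spread from 0 to 1129 CPM in MHCIIhi (median 40.8) and from 99.3 to 588 CPM in MHCIIlo (median 282). It fell by 1.96 ± 0.59 (adjusted p = 0.0135), and with A/T-rich barcodes alone the difference was −0.71 (adjusted p = 0.67). Markers of eosinophils, mast cells and basophils summed to 19.9 to 1772 CPM in MHCIIhi (median 243) and to 526 to 2177 CPM in MHCIIlo (median 708), ranges that overlap. Hdc, which this list shares with the neutrophil list, fell, and it was the 1 member of 3 tested that passed. Mcpt8, a basophil protease, averaged 1.84 CPM in MHCIIhi and 48.8 CPM in MHCIIlo, and Gata2, a transcription factor of basophils and mast cells, 3.70 CPM in MHCIIhi and 43.2 CPM in MHCIIlo, with no test for either. The mast cell protease genes Mcpt1 and Mcpt2 averaged 118.5 and 181.5 CPM in MHCIIhi, against 165.6 and 204.5 CPM in MHCIIlo. Whether these levels come from neutrophils or basophils among the sorted cells was not tested.

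Of 19 tested genes named for tumour-associated macrophages 10 fell, 1 rose and 8 did not pass, with a median log2 fold change of −0.47. Spp1, osteopontin, a secreted matrix protein of tumour macrophages (chromosome 5, 104435118 to 104441050, plus strand), had 362, 604 and 960.0 CPM in MHCIIhi, against 1467, 1566 and 2570.1 CPM in MHCIIlo. No replicates overlapped, and the log2 fold change was −1.52 ± 0.14 (SE; adjusted p = 2.12e-09). Gpnmb, a glycoprotein of lipid-laden macrophages, had 0, 40.6 and 239 CPM in MHCIIhi, against 109.6, 235 and 329 CPM in MHCIIlo (log2 fold change −2.28 ± 0.28). Arg1, which breaks down arginine, averaged 763 ± 334 CPM in MHCIIhi and 1708 ± 357 CPM in MHCIIlo (SD), with a log2 fold change of −1.22 ± 0.19. Mmp12, macrophage elastase, averaged 599 ± 311 CPM in MHCIIhi and 1291 ± 437 CPM in MHCIIlo, with a log2 fold change of −1.16 ± 0.22. Adam8, a membrane protease, and the tetraspanin gene Cd9 fell without overlap, with log2 fold changes of −1.17 ± 0.15 and −0.91 ± 0.11. Fabp5, a fatty acid carrier, was the member that rose, by 0.51 ± 0.18. Vegfa, the angiogenic growth factor, had a log2 fold change of 0.18 (adjusted p = 0.36). The summed level of the list ran from 6403 to 16130 CPM in MHCIIhi (median 8600) and from 12390 to 17890 CPM in MHCIIlo (median 14330). The MHCIIhi maximum was again ctrl 3, inside the MHCIIlo range, while the other MHCIIhi replicates reached at most 11430 CPM. Ctrl 3 also had the lowest macrophage marker sum in MHCIIhi, 31830 CPM, where the other MHCIIhi replicates held 44570 to 65360 CPM. In the matrix and protease list 7 of 18 tested genes fell and 0 rose, among them the fibronectin gene Fn1 (−0.78 ± 0.15) and the protease inhibitor gene Timp2 (−1.01 ± 0.18).

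Of 16 tested dying-cell uptake genes 6 fell, 0 rose and 10 did not pass, with a median log2 fold change of −0.35. Cd36, the scavenger receptor for oxidised lipids and apoptotic cells (chromosome 5, 17781690 to 17888801, minus strand), had 6.79, 14 and 49.2 CPM in MHCIIhi, against 49.9, 78.1 and 94.0 CPM in MHCIIlo. Its groups came close but did not overlap, and the log2 fold change was −2.26 ± 0.23 (adjusted p = 2.65e-08). Mfge8, the bridge between phosphatidylserine and integrins, had 44.6, 319.8 and 702 CPM in MHCIIhi, against 542, 1035 and 2041 CPM in MHCIIlo (log2 fold change −1.81 ± 0.24). Abca1, which exports cholesterol, and Lrp1, a receptor for lipoproteins and calreticulin, fell as well (−0.73 ± 0.11 and −0.76 ± 0.13). The bridging gene Gas6 and the receptor gene Axl did not pass (log2 fold changes 0.46 and 0.23). Among 23 tested genes of lipid and cholesterol handling 7 fell and 3 rose. Lpl, lipoprotein lipase (−1.36 ± 0.22), and the lipid droplet coat gene Plin2 (−0.52 ± 0.08) were among the 7, and Pltp and Fabp5 among the 3. The lysosome list was mixed, with 8 lower and 4 higher among 27 tested, against 14.8% lower and 13.9% higher over all genes. Ctsd, the aspartic protease cathepsin D, had 1130.4, 1483 and 2572 CPM in MHCIIhi, against 2437, 3251 and 3845 CPM in MHCIIlo (log2 fold change −1.0 ± 0.13, adjusted p = 8.19e-07). Lyst, a regulator of lysosome size, fell by 2.56 ± 0.30, while Ctsh, a cysteine protease, rose by 0.54 ± 0.09.

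**Figure D3:**
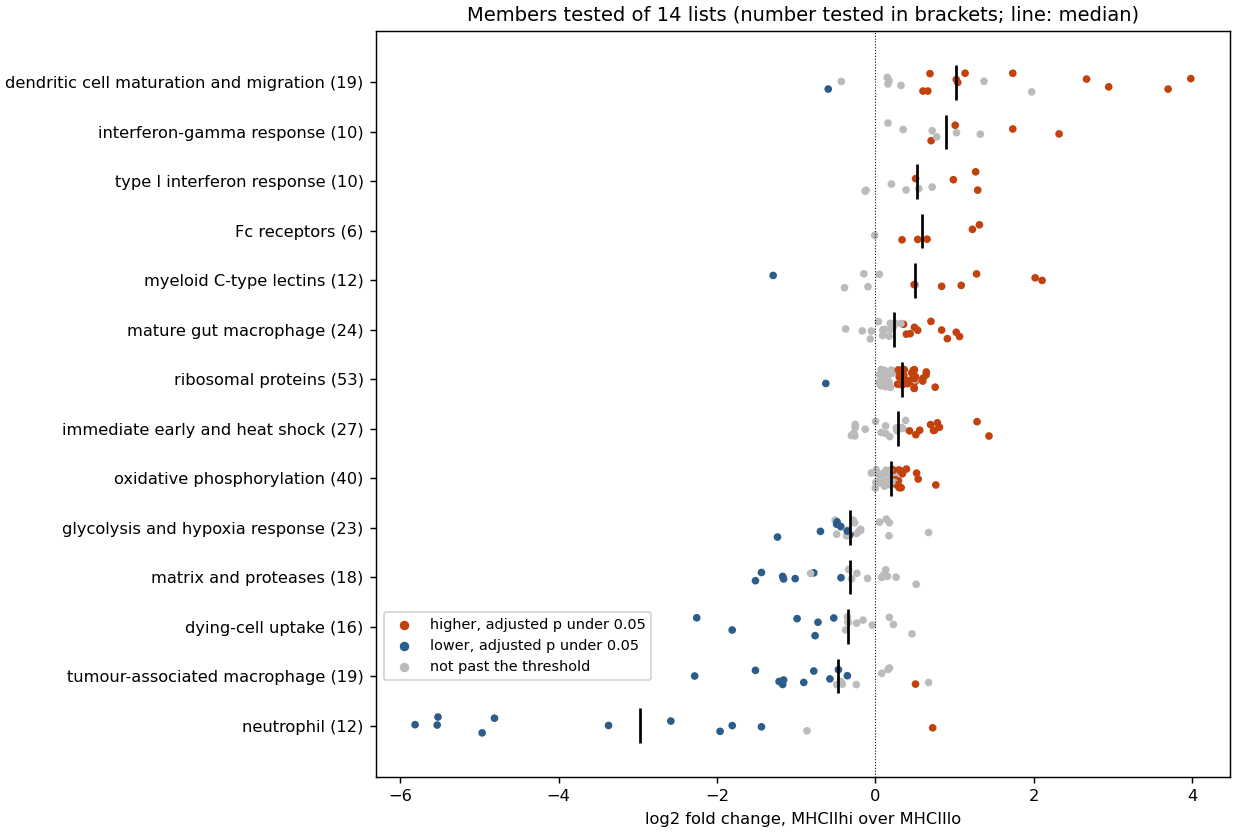
Log2 fold change of MHCIIhi over MHCIIlo (x axis) for each tested member of 14 gene lists, each point a gene, coloured where it was higher or lower past the threshold, with the list's median as a line. The medians run from 1.02 for dendritic cell maturation and migration to −2.98 for the neutrophil list.

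Of 16 tested chemokine ligand genes 4 rose and 3 fell, and of 25 tested inflammatory cytokine and NF-kB target genes 5 rose and 3 fell, against 13.9% higher and 14.8% lower over all genes, so neither list's counts are far from those shares. Beside Ccl8 and Ccl22, the monocyte attractant genes Ccl7 and Ccl12 rose by 1.13 and 0.93 on the log2 scale. Ccl6, a myeloid chemokine, had 576, 758 and 897 CPM in MHCIIhi, against 931, 1329.6 and 2043 CPM in MHCIIlo, without overlap (log2 fold change −0.91 ± 0.10, adjusted p = 4.8e-08). Ccl9 and Cxcl14 fell too (−0.64 and −0.79). Csf1, the growth factor that sustains macrophages (chromosome 3, 107741048 to 107760469, minus strand), had 18.5, 51.7 and 79.8 CPM in MHCIIhi, against 87.7, 198 and 264 CPM in MHCIIlo. All MHCIIhi replicates lay below all MHCIIlo replicates, and the log2 fold change was −1.99 ± 0.22 (adjusted p = 1.36e-07). Among the receptors, C5ar1 and Fpr1, which sense complement C5a and formyl peptides, fell (−0.50 ± 0.12 and −1.09 ± 0.26). In the interleukin-1 list 4 of 8 tested genes rose and 0 fell, with Il1r2, the inflammasome adaptor gene Pycard (0.40 ± 0.09), Il18bp, a soluble inhibitor of interleukin-18 (0.99 ± 0.32), and Gsdmd, which forms pores in dying cells (0.37 ± 0.12).

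Interferon-responsive and immediate early genes leaned to the higher side. Among 10 tested type I interferon response genes 4 rose and 0 fell, and among 10 of the interferon-gamma list 4 rose and 0 fell, with medians of 0.53 and 0.89. The 4 of the interferon-gamma list include Ciita, already given with the MHC class II genes. Ifi27l2a had 323, 562 and 869 CPM in MHCIIhi, against 166, 200.3 and 473 CPM in MHCIIlo (log2 fold change 1.27 ± 0.19, adjusted p = 1.3e-05). Zbp1, a sensor of nucleic acids, rose by 1.29 ± 0.34, and Isg15, a ubiquitin-like modifier, by 0.98 ± 0.37 (adjusted p = 0.048). Cxcl9, a T cell chemokine, did not pass (log2 fold change 1.32, adjusted p = 0.081). Of 27 tested immediate early and heat shock genes 10 rose and 0 fell. Fos, a subunit of AP-1, had 1943, 3049.7 and 4152 CPM in MHCIIhi, against 1437, 1901 and 2124 CPM in MHCIIlo (log2 fold change 0.73 ± 0.10, adjusted p = 2.6e-06), and Dnajb1, a co-chaperone, rose by 1.43 ± 0.29. Among 35 myeloid transcription factors tested 15 rose and 2 fell, with Bhlhe40 (0.78 ± 0.13) and Nfil3 (0.66 ± 0.13) among the 15 and Zeb2 (−0.78 ± 0.14) among the 2.

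Housekeeping programmes differed as well, by small amounts. Of 53 tested ribosomal protein genes 31 rose and 1 fell, with a median log2 fold change of 0.34, and these genes have many near-identical pseudogene copies. Rpl39 had 1412, 1623 and 1894 CPM in MHCIIhi, against 749, 1092 and 1246 CPM in MHCIIlo, without overlap (log2 fold change 0.60 ± 0.08, adjusted p = 5.3e-06). Rplp0 rose by 0.48 ± 0.07, also without overlap. Of 40 nuclear genes of oxidative phosphorylation 15 rose and 0 fell, with a median of 0.20. Ndufa4, a subunit associated with cytochrome oxidase, rose by 0.76 ± 0.11 and Cox7b by 0.54 ± 0.10. That count was 2 with A/T-rich and 8 with G/C-rich barcodes alone, and 9 within ko and 1 within ctrl. Glycolysis and hypoxia genes went the other way, with 7 of 23 lower and 0 higher and a median of −0.32. Slc16a3, the lactate exporter, had 145, 198 and 259.9 CPM in MHCIIhi, against 297, 446 and 774 CPM in MHCIIlo, without overlap (log2 fold change −1.24 ± 0.13, adjusted p = 5.11e-08). Pkm, pyruvate kinase, and Tpi1, triose phosphate isomerase, fell with log2 fold changes of −0.49 ± 0.10 and −0.48 ± 0.11.

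Monocyte genes were mostly lower in MHCIIhi where they passed. Of 13 tested classical monocyte genes 4 fell and 1 rose, and of 6 non-classical monocyte genes 3 fell and 0 rose. Over all genes 14.8% fell and 13.9% rose. Lyz2, lysozyme, had 4441, 9082 and 11765 CPM in MHCIIhi, against 8912, 14561 and 16461 CPM in MHCIIlo (log2 fold change −0.61 ± 0.13, adjusted p = 0.0011). Gsr, which renews glutathione, fell by 0.87 ± 0.15. S100a4, a calcium-binding protein of motile cells, was the member that rose, by 0.67 ± 0.18. Of 14 tested iron and haem genes 5 fell and 1 rose. Hmox1, which degrades haem, and Slc11a1, which pumps iron out of the phagosome, fell (−0.58 ± 0.15 and −0.43 ± 0.10), and Hfe, a regulator of iron uptake, rose by 1.17 ± 0.21.

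Markers of other cell types were summed over their whole lists in each replicate. Colon epithelium markers summed to 299 to 2273 CPM in MHCIIhi (median 622) and 244 to 3545 CPM in MHCIIlo (median 938), and 3 of 9 tested members fell. These were the keratin genes Krt8 (−1.09 ± 0.34) and Krt19 (−1.59 ± 0.39) and the lectin gene Lgals4 (−1.45 ± 0.38). B and plasma cell markers summed to 291 to 33580 CPM in MHCIIhi (median 2042) and 215 to 5415 CPM in MHCIIlo (median 353), and the B cell genes Cd79a, Ms4a1, Pax5 and Cr2 were at 0 in MHCIIlo. MHCIIlo held 1556478 counts in all against 7842035 in MHCIIhi, so a rare transcript is more easily missed there. Igkc, the kappa light chain constant region, spread from 36.1 to 30866 CPM in MHCIIhi (median 1397) and from 43.1 to 4295 CPM in MHCIIlo (median 61.7). The Igkc difference was 2.89 ± 1.05 (adjusted p = 0.039), but 2.52 (adjusted p = 0.26) with A/T-rich and −0.71 (adjusted p = 0.69) with G/C-rich barcodes. The 33580 CPM was the shallow replicate ctrl 2, and without the replicates under 100000 counts the highest sum was 9302 CPM. Red cell markers summed to 30 to 14080 CPM in MHCIIhi (median 790) and 78 to 6941 CPM in MHCIIlo (median 1550), and 0 of 4 tested members passed. Without the shallow replicates the highest red cell sum in MHCIIhi was 3121 CPM. T and NK cell markers lay at 79 to 468 CPM in MHCIIhi and 34 to 309 CPM in MHCIIlo, and fibroblast markers at 0 to 167 CPM in MHCIIhi and 9.74 to 99.9 CPM in MHCIIlo. The part of such cells in the differences above was not tested.

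**Figure D4:**
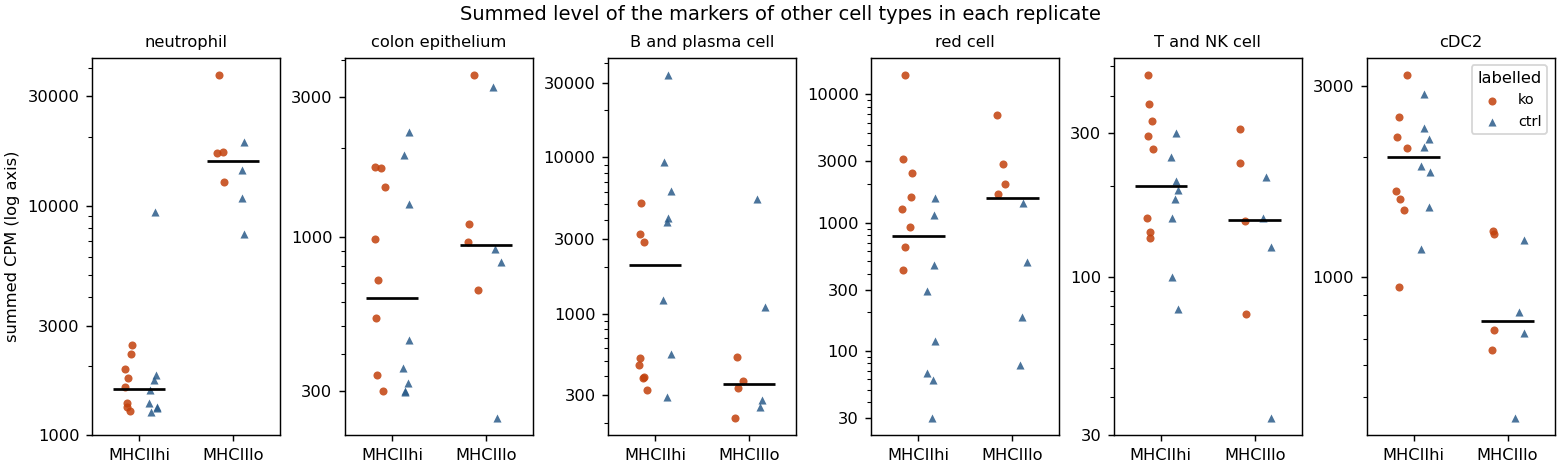
Summed CPM (log axis) of the markers of 6 other cell types in each replicate, MHCIIhi left of MHCIIlo, with ko as circles, ctrl as triangles and the median as a line. The neutrophil sums have medians of 1594 CPM in MHCIIhi and 15660 CPM in MHCIIlo, with 1 MHCIIhi replicate at 9358 CPM, and the sums of the other lists overlap between the populations.

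Among the genes that passed the count filter, none was shown to differ between the populations in a way that depended on the genotype. The interaction of population and genotype passed for 0 of 4022 genes (0%) with edgeR and for 0 with DESeq2. With edgeR 155 genes had an unadjusted p under 0.05, a smaller share than the 0.05 that would arise with no interaction. The smallest adjusted p was 0.663, with no count filter 22 genes passed, and a p that misses the threshold does not show that the genotypes were alike. Ccl17 itself was under the filter, with 15 counts in MHCIIhi ko against 510 in MHCIIhi ctrl.

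The same gate was then compared among Ly6Chi cells from the same series, where MHCIIhi and MHCIIlo had 7 and 8 replicates after 1 library of 8409 counts was left out. Of 5024 genes tested the difference of the contrasts (Ly6Clo minus Ly6Chi) was higher for 120 genes (2.39%) and lower for 134 (2.67%), together 5.06%. A single Ly6Chi MHCIIhi library, ctrl 1 with 78264 counts, stood apart, with 20320 CPM of S100a9 and 103200 CPM of Hbb-bs on its unscaled total. The other 7 libraries of that population, the shallowest included, held 36.99 to 475.7 CPM of S100a9 and 45.18 to 839.6 CPM of Hbb-bs. Without it 284 genes passed (144 higher, 140 lower), 221 of them shared, and each value below is given without it where the call was lost or the fold moved by over 1.5 times.

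Among the genes whose contrast differed, several were lower in MHCIIhi of Ly6Clo cells and higher or not past the threshold in MHCIIhi of Ly6Chi cells. They include Spp1 and Gpnmb of the tumour macrophage list, Cd36 and Mfge8 of the dying-cell uptake list and Csf1 of the inflammatory cytokine list. In Ly6Clo cells Spp1 averaged 595.5 ± 162 CPM in MHCIIhi and 1647 ± 361 CPM in MHCIIlo, and in Ly6Chi cells it averaged 755 ± 375 CPM in MHCIIhi and 355 ± 91.1 CPM in MHCIIlo (SD, n = 16, 8, 7 and 8). Its log2 fold changes in this fit were −1.50 in Ly6Clo and 1.14 in Ly6Chi, and the difference was −2.64 ± 0.29 (SE; adjusted p = 4.17e-08). Gpnmb (difference −3.37 ± 0.68), Cd36 (−3.44 ± 0.76), Csf1 (−2.84 ± 0.55) and Mfge8 (−2.10 ± 0.52) also differed, and each of them fell in Ly6Clo and had a positive value in Ly6Chi that did not pass (adjusted p of 0.31 for both Gpnmb and Cd36, 0.32 for Csf1 and 0.75 for Mfge8). Without the library that stood apart the difference for Cd36 was −2.31 (adjusted p = 0.045), and its Ly6Chi levels were low and uneven, 30.6 ± 56.3 CPM in MHCIIhi and 6.24 ± 1.83 CPM in MHCIIlo. Of 19 tumour-associated macrophage genes 7 had a lower difference and 0 a higher one, against 2.67% lower and 2.39% higher over all genes. C1qb rose by 0.45 in Ly6Clo and by 1.99 in Ly6Chi, a difference of −1.54 ± 0.25 (adjusted p = 9.91e-05). It averaged 5700 ± 969 CPM in Ly6Clo MHCIIhi and 4111 ± 1013.5 CPM in Ly6Clo MHCIIlo, against 1486 ± 487 CPM in Ly6Chi MHCIIhi and 376 ± 144 CPM in Ly6Chi MHCIIlo.

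In the other direction, Cd83 rose by 1.75 in Ly6Clo, with a value of 0.36 in Ly6Chi that did not pass (adjusted p = 0.23), a difference of 1.39 ± 0.23 (adjusted p = 1.35e-04). Batf3 (difference 1.77 ± 0.49) and Tspan13 (1.67) differed likewise. Napsa, an aspartic protease, rose by 0.98 in Ly6Clo and fell by 0.80 in Ly6Chi (difference 1.78 ± 0.23, adjusted p = 3.82e-06), and S100a4 rose by 0.69 in Ly6Clo and fell by 0.92 in Ly6Chi (difference 1.61 ± 0.33). The steepest positive differences of genes averaging at least 100 CPM in a group were Defa24, a Paneth cell defensin (6.32), Dmkn, an epithelial secreted protein (3.20), Ms4a4c (2.09) and Ramp1 (1.96). All of them reached that level only in Ly6Chi MHCIIlo, where Defa24 averaged 618 ± 1224 CPM (SD, n = 8). In Ly6Clo cells Defa24 did not pass (log2 fold change 0.68, adjusted p = 0.72), and Dmkn averaged 13.3 CPM in MHCIIhi and 3.75 CPM in MHCIIlo. The difference for Defa24 passed narrowly (adjusted p = 0.047) and lost the call without the Ly6Clo MHCIIhi replicate ko 7 (difference 3.49, adjusted p = 0.27). G0s2 fell in both, with log2 fold changes of −5.47 in Ly6Clo and −2.70 in Ly6Chi (difference −2.77 ± 0.61, adjusted p = 0.0038, and −1.78 with an adjusted p of 0.031 without the library that stood apart). The difference for S100a9 was −5.27 (adjusted p = 9.63e-04) with that library and −1.17 (adjusted p = 0.28) without it. The globin genes Hbb-bt, Hbb-bs, Hba-a1 and Hba-a2, near-identical copies in pairs, gave −7.83, −7.21, −7.11 and −6.94 with it and −0.72, −0.72, −0.12 and −0.06 without it. The neutrophil list had 11 of 19 lower differences with it and 4 of 19 without it, where 2.67% of all genes were lower with it. Without that library, a difference of the contrasts in the calprotectin genes was thus not shown. With it, S100a8 and S100a9 had log2 fold changes of −0.14 and −0.23 in Ly6Chi cells, which did not pass (adjusted p = 0.96 and 0.93).

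**Figure D5:**
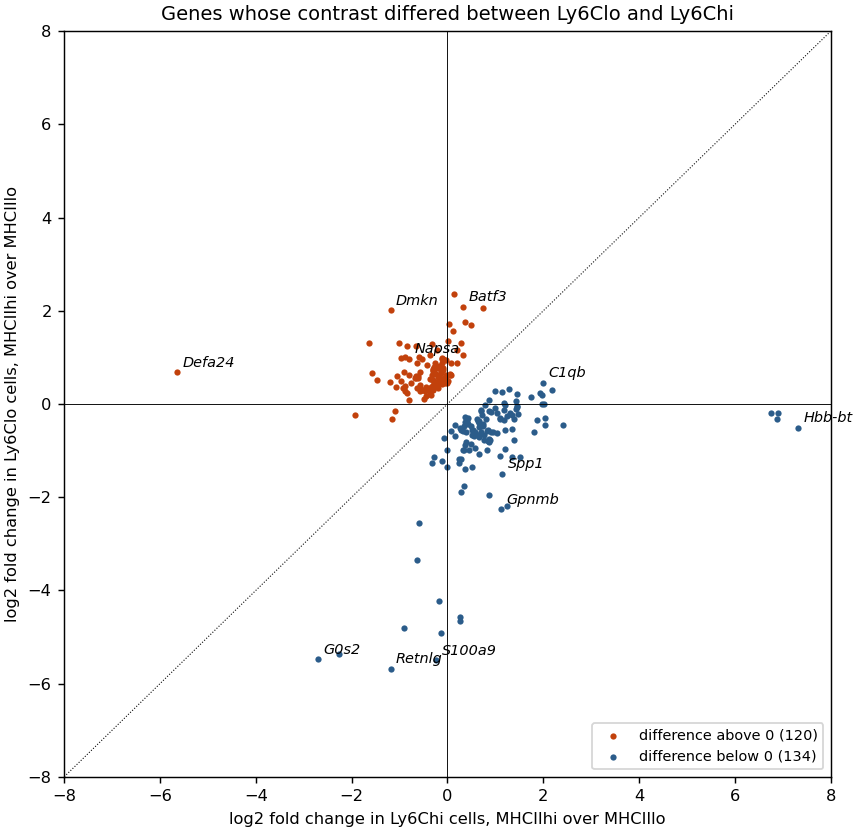
Log2 fold change of MHCIIhi over MHCIIlo in Ly6Clo cells (y axis) against that in Ly6Chi cells (x axis) for the 254 genes whose contrast differed past the threshold, with equal values on the dotted line. Spp1 lies at −1.50 in Ly6Clo and 1.14 in Ly6Chi, and the globin genes at the far right and S100a9 at the bottom lose their call without 1 Ly6Chi library.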

How the data were processed

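The authors deposited 1 table of raw, whole-number counts, genes by libraries. Per the submitters' processing notes, the build was GRCm38 and the tools included R 3.4.4 and DESeq2 1.18.1. No aligner, counter or annotation is named in these sources. Whether molecules or reads were counted is likewise not stated, so floors cover counting error only. One row that names no gene (127 counts, 0.000967%) was left out. Coordinates are those of GENCODE M21 for GRCm38, which lists 93.3% of the 4022 tested symbols. Promoters are from RefSeq.

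Counts of libraries that share population, genotype and replicate number were added. Low genes were removed by filterByExpr at its settings of 10 (count) and 15 (total). CPM came from library sizes scaled by TMM. Population effects with genotype as covariate were tested with edgeR 4.0.16 (limma 3.58.1, R 4.3.3) by its quasi-likelihood test, with Benjamini-Hochberg adjustment over all genes tested and a threshold of 0.05, after the scripts were tested on simulated data. A standard error (SE) is the size of the log2 fold change divided by the square root of F. DESeq2 1.42.0 was an alternative.

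Named genes are up to 15 per direction of largest change that average 100 CPM in the higher population with 0.75 of its replicates past the other population's median, the gate markers, in each list the 4 past the threshold that had the smallest p, and up to 5 per direction for each interaction. Members named because they did not pass, or beyond these, were chosen after their values were seen. The comparison and the gene lists were chosen with earlier results of these data known. Some genes that meet the naming rule are not reported here.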

Additional observations from a re-analysis of the deposited data

Results flagged for a closer look

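In MHCIIlo, 21 of the 137 named genes had 1 of 8 replicates far from the other 7. The criterion marks about 1 in 20 groups of normally distributed values by chance, and whether that rate holds for these genes was not tested. Many fell on the same replicates. Replicate ko 3 was highest in S100a9 (14500 CPM, others 1790 to 6190), S100a8 (9900, others 2000 to 5240), Retnlg (4580, others 713 to 1900), G0s2 (2110, others 378 to 1130), Lrg1 (454, others 44.8 to 222), Ccl6 (2040, others 931 to 1450) and Slc16a3 (774, others 297 to 512). Replicate ko 2 was highest in the globin genes Hbb-bs (3250 CPM, others 36.6 to 1410), Hba-a1 (1450, others 5.22 to 518), Hba-a2 (1130, others 10.4 to 461) and Hbb-bt (1040, others 10.4 to 467), and in Lrp1 (907, others 378 to 519) and Itgam, the integrin chain CD11b (658, others 458 to 540).

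Replicate ctrl 2 held 4300 CPM of Igkc (others 43.1 to 214) and 228 CPM of Krt8 (others 4.87 to 96.8), and was lowest in Aldoa, an enzyme of glycolysis (1440, others 1760 to 1970). Replicate ctrl 1 was highest in Ccl8 (161 CPM, others 31.3 to 84.7) and Dnase1l3 (234, others 34.0 to 78.3), which brought it closest to MHCIIhi for these genes. Replicate ctrl 4 was highest in Spp1 (2570 CPM, others 1470 to 1780) and Lpl (167, others 40.7 to 90.1), and ko 1 in Ifi27l2a (473, others 166 to 257).

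The difference of contrasts between Ly6Clo and Ly6Chi cells was tested for each gene and passed for Defa24 (6.32), Dmkn (3.2), Ms4a4c (2.09), Ramp1 (1.96) and Napsa (1.78) on the higher side. On the lower side it passed for Hbb-bt (−7.83), Hbb-bs (−7.21), Hba-a1 (−7.11), Hba-a2 (−6.94) and S100a9 (−5.27), all of which lost the call without 1 Ly6Chi MHCIIhi library.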

How the results depend on the processing

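Counts of genes past the threshold were recomputed under 15 alternatives and 24 fits that left out 1 replicate each, and the cause of each change was not tested beyond the smaller number of samples where samples were dropped. Against 1155 genes (559 higher, 596 lower), the count was 348 (169 and 179) with A/T-rich barcodes only, 471 (248 and 223) with G/C-rich barcodes only, 325 (161 and 164) with ctrl only, 593 (296 and 297) with ko only and 731 (351 and 380) with replicates 1 to 4 only. The 2-fold count of 135 (66 and 69) was 627 (272 and 355) with no count filter and 207 with G/C-rich barcodes only, of which 123 were lower. Those lower by 2-fold were 112 with ko only, and those higher were 100 with each library as its own sample and 101 with barcode class as a covariate as well. With no count filter the interaction with genotype passed for 22 genes instead of 0, and the positive differences of contrasts were 206 instead of 120. The difference of contrasts passed for 254 genes (120 and 134), for 20 (5 and 15) with ctrl only, for 65 (23 and 42) with ko only, and its lower count was 222 with the DESeq2 test. Without the Ly6Chi MHCIIhi library that stood apart, an alternative chosen after seeing the data, it passed for 284 genes. Without replicates under 100000 counts the population difference passed for 1220 genes (587 and 633).

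Leaving out 1 replicate at a time gave 987 to 1252 genes (453 to 566 higher, 533 to 686 lower), 128 to 153 past 2-fold (56 to 74 and 62 to 79), 0 for the interaction and 217 to 276 for the difference of contrasts (94 to 138 and 114 to 146). Of 137 named genes, 133 had passed with all replicates. Among the 137, 66 lost the call under at least 1 of these fits. The other 71 lost no call, but they include the globin genes Hbb-bt, Hbb-bs, Hba-a1 and Hba-a2, which never had one. Of the genes that had passed, 2 changed sign, Igkc (−0.7112) and Il10 (−0.01302) with G/C-rich barcodes only. The globin genes, negative with all replicates, were positive with A/T-rich barcodes only (0.03077, 0.04227, 0.3271 and 0.5113). In the difference of contrasts, Hba-a1 (0.06839) and Hba-a2 (0.2212) changed sign with ko only.

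Equal replicate numbers showed little pairing in expression, which cannot tell whether equal numbers share an animal. Of 8 pairs, 1 had a correlation of deviations over 0.1 (range −0.0882 to 0.263), and 1 sample correlated best with its own number. With the number as a replicate block, 692 genes passed (329 and 363), 168 past 2-fold, 0 for the interaction and 143 for the difference of contrasts (69 and 74). Depth limits low genes such as Ccl17 and Fscn1, since MHCIIhi held 7842035 counts in all and MHCIIlo 1556478.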

Other observations

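Further members of the myeloid transcription factor list, of whose 35 tested genes 15 rose, 2 fell and 18 did not pass, also differed. Nr4a2, an orphan nuclear receptor, averaged 173 ± 49.6 CPM in MHCIIhi and 86.8 ± 24.7 CPM in MHCIIlo (SD, n = 16 and 8), with a log2 fold change of 0.97 ± 0.19 (SE; edgeR adjusted p = 3.9e-04). Ahr, the receptor for dietary and microbial aryl hydrocarbons, averaged 67.2 ± 22.8 CPM in MHCIIhi and 37.7 ± 14.7 CPM in MHCIIlo, with a log2 fold change of 0.91 ± 0.21. Batf, a partner of AP-1 factors, and Etv3, a factor of monocyte-derived dendritic cell differentiation, rose by 0.96 ± 0.18 and 0.84 ± 0.21. Rbpj, the DNA-binding mediator of Notch signals, fell by 0.68 ± 0.15. Spi1, which encodes the myeloid master regulator PU.1, had a log2 fold change of 0.09 (adjusted p = 0.59).

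Of 25 tested inflammatory cytokine and NF-kB target genes 5 rose, 3 fell and 17 did not pass, against 13.9% higher and 14.8% lower over all genes. Il1b was among the most abundant cytokine genes in both populations, with 4905 ± 2438 CPM in MHCIIhi and 4809.5 ± 1334 CPM in MHCIIlo, and a log2 fold change of −0.02 (adjusted p = 0.97). Osm, a cytokine of the interleukin-6 family, fell by 0.33 ± 0.11, and Tnfaip2 had a log2 fold change of −0.69 ± 0.19 (adjusted p = 0.0062). The NF-kB inhibitor gene Nfkbie, the adhesion gene Icam1 and Socs3, a brake on cytokine receptors, rose by 0.74 ± 0.15, 0.57 ± 0.12 and 0.61 ± 0.12. Of 13 tested bacterial sensing genes 3 fell and 1 rose, against 14.8% lower and 13.9% higher over all genes. Tlr2, a receptor for bacterial lipoproteins, fell by 0.39 ± 0.11, and Unc93b1, the chaperone of endosomal Toll-like receptors, rose by 0.37 ± 0.09. Il6 and Ptgs2, the inducible cyclooxygenase, did not pass (adjusted p = 0.45 and 0.67).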
